A study of Homo sapiens with 8 samples.

Results

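Interferon-stimulated genes are the genes that cells switch on in response to interferons, and 45 of them were followed here in human lens epithelial cells. They were taken as a fixed list of symbols. All 45 were found by Ensembl identifier among the 58735 genes of the count table, with GENCODE release 29 symbols (RIGI was formerly DDX58, and CGAS was formerly MB21D1). Each was placed by its mean count per library over all 8 libraries. There were 35 well counted genes (a mean of at least 50 counts), 6 low counted genes (a mean from 10 up to 50: OAS1, OAS2, MX1, MX2, BST2 and USP18) and 4 barely counted genes (IFI27, CMPK2, RSAD2 and XAF1). Near the upper limit, IRF9 lay just inside with a mean of 51.4 counts and MX1 and BST2 lay outside with 32.4 each.

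Type I and type III interferons bind cell-surface receptors whose JAK kinases phosphorylate STAT proteins. STAT2 and IRF9 are parts of ISGF3, a factor that binds the interferon-stimulated response element (ISRE) in promoters. Interferon-γ acts mainly through another element, the gamma-activated site (GAS), and IRF1 carries part of that response. The products include sensors of foreign RNA and DNA, enzymes and binding proteins that block viral replication, and the ubiquitin-like protein ISG15. Many are present at low levels in cells that have met no added interferon.

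The cells were SRA01/04, a human lens epithelial line carrying the large T antigen of a polyomavirus. The 8 libraries were 4 of cells with a control short hairpin RNA (shControl, genotype given as WT) and 4 of cells with a hairpin against SMURF1 (shSmurf1, genotype given as Smurf1 knockdown). SMURF1 is a ubiquitin ligase of the HECT class whose substrates include SMADs. All 8 had received recombinant human TGF-β2 at 20 ng/ml for 48 h, and no library of cells without TGF-β2 and none of cells given interferon was part of the comparison. The labels name 1 control hairpin and 1 SMURF1 hairpin with no rescue, do not say whether the lines are clones or pools, and describe biological replicates with no word on separate cultures. In GENCODE 29, exonic bases of OAS1, MX1, IFIT2, ISG15, IRF1, SP110, EIF2AK2, CGAS and IFITM3 are shared with a feature on the other strand, and those of IRF9 and TRIM22 with one on the same strand. Effects of lower SMURF1 and of anything else that sets the lines apart cannot be told apart, and the p-values reflect only how far these libraries vary, which may be technical.

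Library totals ranged from 14688651 to 17030394 counts. Counts were converted to counts per 1e6 (CPM), with library sizes scaled by TMM, so that 1 count was worth 0.0596 to 0.0674 CPM. Differences were tested with edgeR's quasi-likelihood test, two-sided, with Benjamini-Hochberg adjustment over the 15647 genes that passed the filter on low counts, and a gene was called higher or lower at an adjusted p under 0.05. SMURF1 lay between 85.8 and 93.3 CPM in shControl and between 50.4 and 51.4 CPM in shSmurf1. The median log2 fold change of its 50 nearest well counted genes was −0.25, and SMURF1, at −0.80, lay −0.55 from it. Mitochondrially encoded genes took 4.03% to 4.40% of counts in shControl and 5.07% to 6.34% in shSmurf1, with the highest share in shSmurf1 replicate 3, which stood apart from its group. PAX6, a lens and eye regulator, was at 33.3 CPM in shControl and 34.0 CPM in shSmurf1. Of 10 lens markers, not all of them particular to the epithelium, only PAX6 and BFSP1 were tested. FOXE3, PITX3, CRYAA, CRYBB2, SOX1, CDH1 and MIP each averaged under 2 counts per library.

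Most of the interferon-stimulated genes that were well counted lay higher in shSmurf1. Of the 35, 19 were higher, 1 (GBP1) was lower and 15 did not pass. Among all 12252 well counted genes tested, 11.5% were higher and 14.7% lower. The median log2 fold change of the 35 was 0.30, against −0.0015 for all well counted genes. With a limit of 20 or 100 mean counts in place of 50, 22 of 39 and 16 of 29 were higher and 1 was lower at each. Of the 6 low counted genes, 4 were higher and 0 lower, where the share of all low counted genes called was 6.21% higher and 3.37% lower, or 9.58% in either direction. At an unadjusted p under 0.05 edgeR also put 0 of the 6 lower. In 3 of the 6 every shSmurf1 library lay above every shControl library, where 8.19% of all low counted genes did, and in 0 every one lay below, where 4.42% did. OAS1, OAS2 and USP18 met the filter through their shSmurf1 counts, since fewer than 4 of their shControl libraries reached its minimum. A gene admitted that way had to differ or lie near the limit, so the low counted genes are given as a description. With OAS1 and OAS2 included, 23 of the 41 tested genes were higher and 1 lower, where 10.3% of all genes tested were higher and 12.2% lower. In bulk RNA a larger share of cells with a response and more RNA per cell cannot be told apart.

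**Figure D1:**
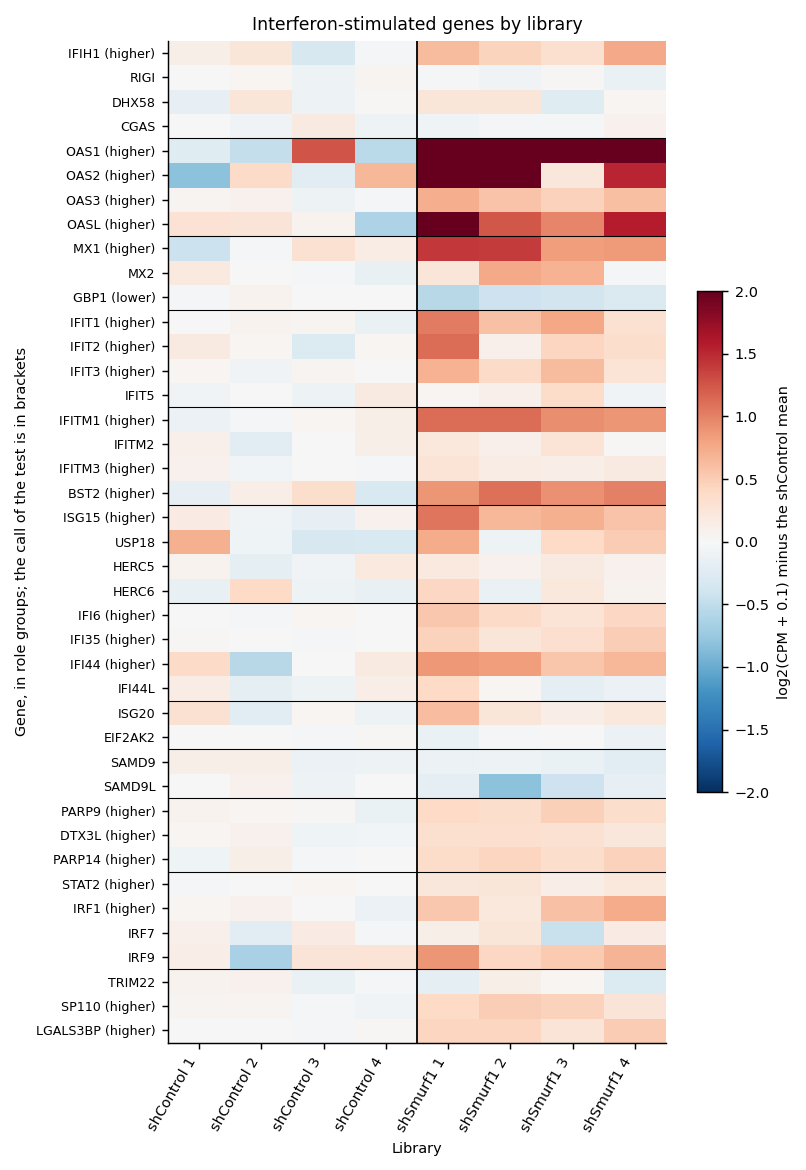
Heat map of the 41 tested interferon-stimulated genes (rows, in role groups divided by lines) in the 8 libraries (columns). Colour is log2(CPM + 0.1) minus the mean of the 4 shControl libraries, and it saturates at 2 in either direction. The 23 genes marked as higher range across the shSmurf1 columns from dark red (OAS1) to pale (IFITM3 and STAT2), and some single cells of these genes are pale too, such as shSmurf1 replicate 3 for OAS2.

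The promoters are shown first because the ISRE defines many genes of this class. RefSeq promoter windows on GRCh38.p14, from 250 bases before to 50 after a gene's start, were found for 35 of the 45 genes. The ISRE core was searched as GAAANNGAAA on both strands and the GAS core as TTCNNNGAA, which reads the same on both strands. The 2 cores can overlap by a few bases, and both are counted when they do. At least 1 ISRE core lay in a window of 24 of the 35 genes (68.57%), against 3.57% of all 35116 windows and 3.95% of the tested protein-coding genes matched by symbol. A GAS core lay in windows of 10 (28.57%), against 7.66% of all windows and 8.64% of those genes. The ISRE core was found in 15 of 20 genes called higher, in 6 of 10 that did not pass and in GBP1, which was lower. The GAS core was found in 8 of the 20 genes called higher, in 1 of the 10 that did not pass and not in GBP1. OAS1, IFI35, STAT2, IRF1 and SP110 were higher and had no ISRE core in these windows. A match is a description of the letters and not of binding.

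The following stretches of 30 bases, read 5′ to 3′ on the gene's strand with the ISRE core in capitals, allow genes that were higher to be set beside genes that were not.
ISG15, higher (chr1:1013374-1013403, plus strand): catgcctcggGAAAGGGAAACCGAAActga
BST2, higher (chr19:17405741-17405770, minus strand): tcctttctggGAAACTGAAACTGAAAacct
OAS3, higher (chr12:112938321-112938350, plus strand): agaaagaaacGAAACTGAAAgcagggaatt
MX1, higher (chr21:41420559-41420588, plus strand): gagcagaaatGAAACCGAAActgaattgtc
IFIT1, higher (chr10:89392497-89392526, plus strand): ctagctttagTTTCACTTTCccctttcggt
DTX3L, higher (chr3:122564322-122564351, plus strand): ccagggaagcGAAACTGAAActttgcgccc
PARP9, higher (chr3:122564322-122564351, minus strand): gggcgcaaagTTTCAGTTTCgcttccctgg
EIF2AK2, not passed (chr2:37156967-37156996, minus strand): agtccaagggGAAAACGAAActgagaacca
SAMD9, not passed (chr7:93118096-93118125, minus strand): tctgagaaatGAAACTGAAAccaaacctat
ISG20, not passed (chr15:88638937-88638966, plus strand): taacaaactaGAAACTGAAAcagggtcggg
HERC5, not passed (chr4:88456984-88457013, plus strand): ctcattacagTTTCCTTTTCCTTTTCgatt
GBP1, lower (chr1:89065316-89065345, minus strand): aacgaagtacTTTCAGTTTCatattactct
DTX3L and PARP9 face away from each other and share a single core, which is why their stretches are the same bases read from opposite strands. Of the stretches shown, OAS3, BST2, DTX3L, SAMD9 and ISG20 hold the core with the same letters, and PARP9 and GBP1 hold it on the other strand. OAS3, BST2, DTX3L and PARP9 were higher, SAMD9 and ISG20 did not pass, and GBP1 was lower. ISG15, BST2 and HERC5 each hold a pair of overlapping cores in the stretch shown.

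The oligoadenylate synthetases, which make a second messenger that activates the RNA-cleaving enzyme RNase L, held the largest changes. OAS1, OAS3 and OAS2 lie side by side on chromosome 12 (GRCh38, 112906777 to 113011723, plus strand), and all 3 were higher. OAS1 and OAS2 met the filter on low counts through their shSmurf1 counts, so their changes are given as a description. OAS1 was at 0.179, 0.135, 0.685 and 0.126 CPM in shControl replicates 1 to 4 and at 2.50, 2.02, 2.10 and 1.37 CPM in shSmurf1 (log2 fold change 2.78 ± 0.43 SE, edgeR adjusted p = 8.69e-05). These rest on 3, 2, 11 and 2 counts in shControl replicates 1 to 4 and 23 to 39 in shSmurf1, and the groups did not overlap. OAS2 was at 0.298, 0.809, 0.498 and 1.01 CPM against 3.52, 2.75, 0.723 and 1.91 CPM (1.77 ± 0.43, edgeR adjusted p = 0.00495), and its shSmurf1 replicate 3 lay within the shControl range.

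OAS3, the form with the highest level per length of the family, was well counted. Its CPM was 20.9, 21.4, 18.7 and 19.7 in shControl and 33.2, 29.96, 27.8 and 30.5 in shSmurf1, or 1.51-fold higher (0.59 ± 0.082, edgeR adjusted p = 2.59e-05). OASL, a relative without the synthetase activity that enhances RIG-I signalling, was at 2.33, 2.29, 1.99 and 1.20 CPM against 8.65, 4.64, 3.81 and 5.84 CPM (1.55 ± 0.26, edgeR adjusted p = 0.000165). In both genes every shSmurf1 library lay above every shControl library, and the spread of OASL within shSmurf1 was wide.

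Of the 4 sensors of foreign nucleic acid, 1 was higher. IFIH1, which encodes MDA5, a sensor of long RNA duplexes, was at 4.77, 5.19, 3.49 and 4.29 CPM in shControl and 6.85, 5.98, 5.52 and 7.45 CPM in shSmurf1. It was higher (0.54 ± 0.16, edgeR adjusted p = 0.0189) with no overlap, but did not pass when shControl 3, shControl 4, shSmurf1 1 or shSmurf1 4 was left out (adjusted p up to 0.0719). RIGI, the sensor of RNA with 5′ triphosphates, was at 21.0, 21.4, 19.4 and 21.6 CPM against 20.6, 19.8, 21.2 and 18.95 CPM, and the groups overlapped (−0.05 ± 0.082). DHX58, which encodes LGP2, a regulator of both sensors (0.08 ± 0.14), and CGAS, the cytosolic DNA sensor (−0.02 ± 0.10), did not pass either.

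Among the IFIT genes, which encode RNA-binding proteins that hold back translation of viral RNA and lie together on chromosome 10 (89283694 to 89421001), 3 of 4 were higher. IFIT1 was at 6.44, 6.74, 6.66 and 5.80 CPM in shControl and 13.3, 9.67, 10.98 and 7.93 CPM in shSmurf1 (0.70 ± 0.15, edgeR adjusted p = 0.00154). IFIT3, a partner of IFIT1, was at 10.3, 9.57, 10.5 and 10.0 CPM against 16.5, 13.2, 15.6 and 12.2 CPM (0.51 ± 0.11, edgeR adjusted p = 0.00250). Neither gene overlapped between the groups.

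IFIT2 was at 7.94, 7.21, 5.79 and 7.19 CPM against 15.3, 7.52, 9.40 and 8.94 CPM (0.55 ± 0.18, edgeR adjusted p = 0.0325). Its shSmurf1 replicate 2 lay below shControl replicate 1. Without shSmurf1 replicate 1, the highest library, the change was 0.29 and did not pass (edgeR adjusted p = 0.189), and it also missed the threshold without shControl replicate 2, 3 or 4 and with limma-voom. IFIT2 shares exonic bases with LIPA on the other strand. IFIT5, the most highly expressed of the 4, was at 28.1, 29.3, 27.6 and 33.5 CPM against 30.3, 31.8, 38.1 and 28.2 CPM and did not pass (0.12 ± 0.093). With each library's GC trend removed, IFIT5 passed as higher.

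The IFITM proteins, which stop enveloped viruses from fusing with cell membranes, come from neighbouring genes on chromosome 11 (307631 to 327537). IFITM1 had the smallest adjusted p of all 41 genes. It was at 7.76, 8.15, 8.59 and 9.15 CPM in shControl and 18.3, 18.4, 16.04 and 15.5 CPM in shSmurf1, 2.02-fold higher (1.02 ± 0.11, edgeR adjusted p = 8.03e-07). IFITM3, the most abundant of the 3 per length, rose from 109.8 ± 5.04 to 125 ± 5.81 CPM (mean ± SD, n = 4; 0.18 ± 0.054, edgeR adjusted p = 0.0187). It did not pass without shControl replicate 2, 3 or 4 or shSmurf1 replicate 1 (adjusted p up to 0.0829). IFITM2 was at 23.3, 18.6, 21.98 and 23.5 CPM against 25.2, 23.3, 26.2 and 22.05 CPM and did not pass (0.15 ± 0.091).

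The IFITM genes are close copies, and in GENCODE 29 IFITM1 and IFITM2 share exonic bases on the same strand, so reads could be lost or moved between them in the authors' counting. The promoter window of IFITM1 (chr11:313790-314089, plus strand, RefSeq, GRCh38.p14) is printed whole because it held ISRE cores at 40 and 6 bases before the start, in capitals.
IFITM1 promoter: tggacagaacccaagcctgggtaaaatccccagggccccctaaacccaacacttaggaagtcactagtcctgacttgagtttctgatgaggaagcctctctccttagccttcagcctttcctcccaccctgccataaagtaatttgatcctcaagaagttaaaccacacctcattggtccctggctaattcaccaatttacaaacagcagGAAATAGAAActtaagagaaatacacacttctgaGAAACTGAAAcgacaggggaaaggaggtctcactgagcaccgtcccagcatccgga
BST2, or tetherin, which holds budding virus at the cell surface, was low counted. It was at 1.19, 1.48, 1.74 and 1.07 CPM in shControl and 2.56, 3.02, 2.63 and 2.80 CPM in shSmurf1, with no overlap (1.0 ± 0.24, edgeR adjusted p = 0.00447).

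**Figure D2:**
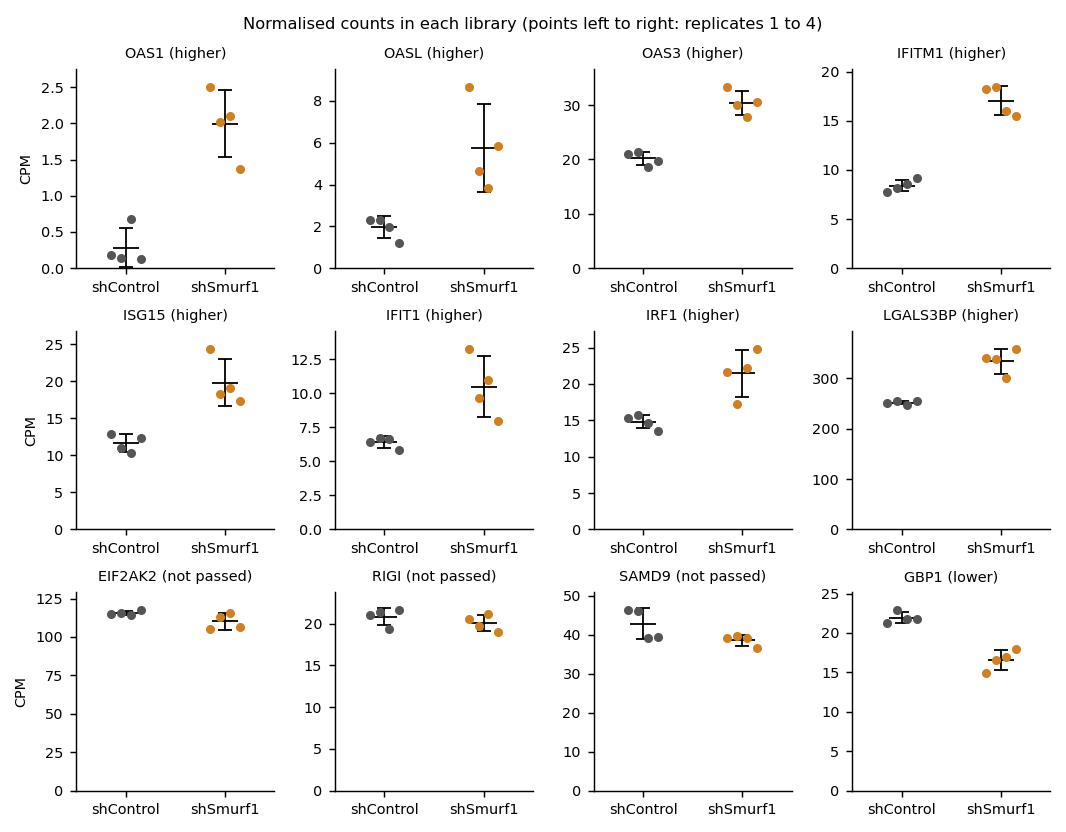
CPM of 12 interferon-stimulated genes in the 4 shControl (grey) and 4 shSmurf1 (orange) libraries, with points for replicates 1 to 4 from left to right and bars for the mean ± SD. IFITM1 lay between 7.76 and 9.15 CPM in shControl and between 15.5 and 18.4 CPM in shSmurf1, whereas the points of RIGI and EIF2AK2 overlapped between the groups.

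In the ISG15 system the modifier rose and its enzymes did not pass. ISG15, the ubiquitin-like protein that is attached to other proteins, was at 12.9, 10.99, 10.3 and 12.3 CPM in shControl and 24.4, 18.3, 19.1 and 17.3 CPM in shSmurf1 (0.76 ± 0.11, edgeR adjusted p = 6.32e-05). HERC5, its main human ligase, was at 18.2 ± 2.15 against 20.0 ± 0.793 CPM (0.13 ± 0.093, edgeR adjusted p = 0.359). HERC6, a related HECT protein (0.14 ± 0.16), and USP18, the protease that removes ISG15 and damps interferon receptor signalling (0.38 ± 0.36, on 9 to 21 counts per library and with a near-identical copy, USP41), also did not pass.

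The dynamin-like GTPases, which trap viral components, and the GTPase GBP1 did not share a direction. MX1 was at 0.895, 1.21, 1.56 and 1.39 CPM in shControl and 3.46, 3.43, 2.30 and 2.32 CPM in shSmurf1, with no overlap (1.18 ± 0.26, edgeR adjusted p = 0.00237). Its neighbour MX2 overlapped between the groups (0.46 ± 0.27, edgeR adjusted p = 0.247). GBP1, a guanylate-binding protein induced above all by interferon-γ, was at 21.2, 22.9, 21.8 and 21.8 CPM against 14.9, 16.5, 16.96 and 18.0 CPM (−0.40 ± 0.085, edgeR adjusted p = 0.00184). GBP1 was thus the only gene of the list called lower with all libraries. It lies on chromosome 1 among genes that were lower too. The median log2 fold change of the 50 nearest well counted genes was −0.31, and GBP1 lay −0.09 from it.

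Of the genes named IFI, 3 of the 4 tested were higher. IFI44, of uncertain function, was at 3.70, 1.89, 2.80 and 3.22 CPM in shControl and 5.25, 5.11, 4.21 and 4.53 CPM in shSmurf1 (0.71 ± 0.20, edgeR adjusted p = 0.0134). Its neighbour IFI44L overlapped between the groups (0.04 ± 0.17). Both lie on chromosome 1 where the 50 nearest genes had a median of −0.27, and relative to it IFI44 lay at 0.98 and IFI44L at 0.32.

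IFI6, an inhibitor of flavivirus replication and of apoptosis, was at 11.4, 11.3, 11.9 and 11.5 CPM against 16.8, 15.05, 13.9 and 15.4 CPM (0.41 ± 0.097, edgeR adjusted p = 0.00438). IFI35 rose from 18.1 ± 0.257 to 23.6 ± 1.82 CPM (0.39 ± 0.083, edgeR adjusted p = 0.00191). In neither gene did the groups overlap, as was true of IFI44. IFI27 was barely counted, with 21 counts over the shControl libraries and 14 over the shSmurf1 libraries, and was not tested.

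The enzymes that act on RNA and nucleotides held no gene that passed. EIF2AK2, which encodes PKR, the kinase that halts translation on viral RNA duplexes, was at 115, 115, 114 and 118 CPM in shControl and 105, 113, 116 and 106 CPM in shSmurf1, with overlap (−0.07 ± 0.052, edgeR adjusted p = 0.382). ISG20, an RNA exonuclease, was at 3.99 ± 0.661 against 4.93 ± 0.785 CPM and did not pass (0.30 ± 0.17). RSAD2, or viperin, had 1 count over all 8 libraries, and CMPK2, the adjacent mitochondrial nucleotide kinase gene, had 0 in each, which allows up to 3 counts, or 0.179 to 0.202 CPM, per library. XAF1, a pro-apoptotic antagonist of XIAP, likewise had 1 count in all. Such limits cover counting error only.

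SAMD9 and SAMD9L, adjacent genes for antiviral growth-restraining proteins on chromosome 7 (93099513 to 93148369), both had negative log2 fold changes that did not pass. SAMD9 was at 46.4, 46.2, 39.2 and 39.6 CPM in shControl and 39.2, 39.7, 39.1 and 36.5 CPM in shSmurf1 (−0.15 ± 0.073, edgeR adjusted p = 0.164). In SAMD9L the groups did not overlap, at 9.95 ± 0.534 against 7.65 ± 1.53 CPM (−0.37 ± 0.14, edgeR adjusted p = 0.0565), and it passed as lower without shSmurf1 replicate 1 or 4. The 50 nearest genes had a median of −0.31, and relative to it SAMD9 lay at 0.16 and SAMD9L at −0.06.

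The genes PARP9, DTX3L and PARP14, taken as 1 group, were all higher. PARP9, an ADP-ribosyltransferase, and DTX3L, its ubiquitin ligase partner, rose from 17.9 ± 1.12 to 23.6 ± 0.907 CPM (0.40 ± 0.082, edgeR adjusted p = 0.00151) and from 31.1 ± 1.71 to 38.2 ± 1.28 CPM (0.30 ± 0.069, edgeR adjusted p = 0.00402). PARP14, a larger relative downstream on chromosome 3, rose from 38.0 ± 2.35 to 50.1 ± 1.85 CPM (0.40 ± 0.066, edgeR adjusted p = 0.000179). The shSmurf1 libraries lay above all shControl libraries in each of the 3. PARP9 and DTX3L overlap head to head, so that reads over their shared exonic bases cannot be told apart without strand.

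Of the transcription factors that drive the response, STAT2 and IRF1 were higher. IRF1 was at 15.3, 15.7, 14.7 and 13.6 CPM in shControl and 21.6, 17.2, 22.2 and 24.9 CPM in shSmurf1 (0.54 ± 0.11, edgeR adjusted p = 0.000886). STAT2 rose by a small amount, from 46.2 ± 0.939 to 53.2 ± 1.66 CPM (0.20 ± 0.059, edgeR adjusted p = 0.0175), and did not pass when shControl 1, shControl 2, shSmurf1 1 or shSmurf1 2 was left out (adjusted p up to 0.0610) or with no filter on low counts. IRF9, the DNA-binding part of ISGF3, was at 2.58 ± 0.697 against 3.93 ± 0.576 CPM with no overlap and missed the threshold narrowly (0.60 ± 0.22, edgeR adjusted p = 0.0514). It passed in 8 of 18 other settings, among them DESeq2, limma-voom, the removal of each library's GC trend and the fit without shSmurf1 replicate 3. IRF7, the factor that amplifies interferon-α production, overlapped between the groups (0.04 ± 0.13).

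Of the remaining genes, LGALS3BP, a secreted glycoprotein that binds galectin-3, had the highest CPM of the list. It was at 252, 254, 247 and 255 CPM in shControl and 340.2, 339, 299.8 and 359 CPM in shSmurf1 (0.41 ± 0.053, edgeR adjusted p = 1.27e-05). It lies on chromosome 17 (78971238 to 78980109) among genes that were also higher. The median of its 50 nearest genes was 0.38, and LGALS3BP lay 0.03 from it. SP110, a nuclear body protein, was at 7.28, 7.21, 6.79 and 6.62 CPM against 9.22, 9.88, 9.66 and 8.34 CPM (0.41 ± 0.12, edgeR adjusted p = 0.0167). SP110 did not pass without shControl replicate 4 or shSmurf1 replicate 2 (adjusted p up to 0.0511). TRIM22, an antiviral ubiquitin ligase, did not pass (−0.07 ± 0.11).

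**Figure D3:**
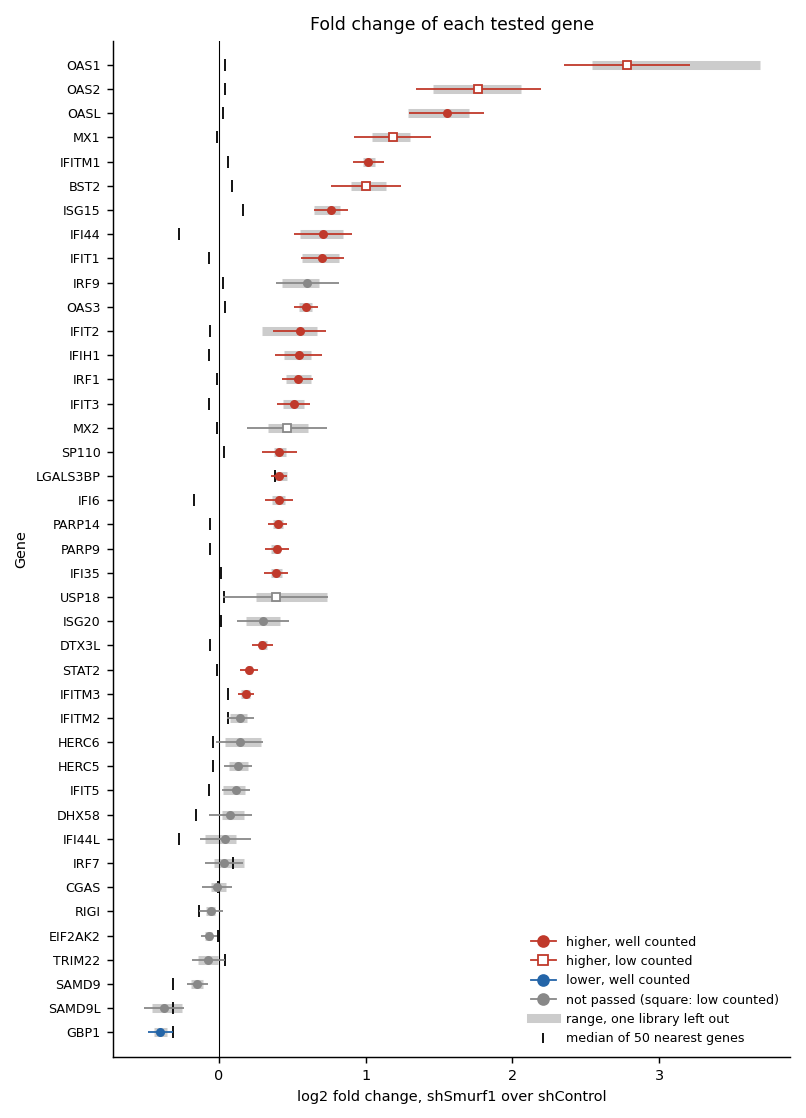
Log2 fold change (horizontal axis, shSmurf1 over shControl, point ± SE) of the 41 tested interferon-stimulated genes in order of size, with open squares for low counted genes, grey bands for the range when 1 library is left out and black ticks for the median of the nearest well counted genes. OAS1 is at the top at 2.78 and GBP1 at the bottom at −0.40, and for LGALS3BP, GBP1 and SAMD9L the tick lies close to the point.

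The tested genes varied among the libraries of a group as well. Over the 23 genes called higher, shSmurf1 replicate 1 held the highest shSmurf1 value in 12 and shSmurf1 replicate 3 the lowest in 11. In shControl the highest value was spread over replicates 1 to 4 in 8, 6, 6 and 3 of these genes. Of all 41 genes, 22 had every shSmurf1 library above every shControl library, where 10.6% of all genes tested did. In 2, GBP1 and SAMD9L, every one lay below, where 13.1% did. The 41 include OAS1, OAS2 and USP18, which met the filter through their shSmurf1 counts. Of the 35 well counted genes 19 lay above in this way, where 11.3% of all well counted genes did. GBP1 and SAMD9L are well counted too, and 15.5% of all well counted genes lay below. Levels per length of the tested genes ran in shControl from 0.0568 CPM per kilobase for OAS1 to 70.3 for LGALS3BP and 81.5 for IFITM3, and the 4 genes with the largest log2 fold changes (OAS1, OAS2, OASL and MX1) lay between 0.0568 and 0.555 CPM per kilobase there.

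**Figure D4:**
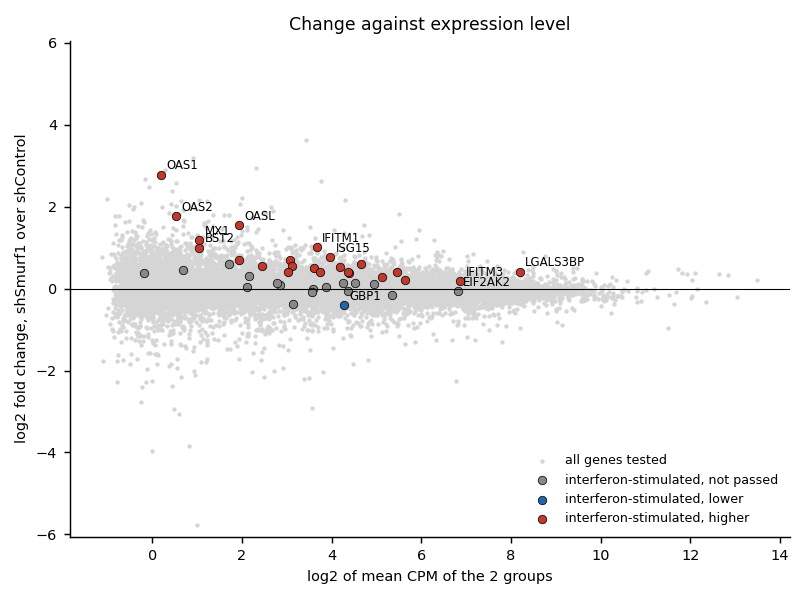
Log2 fold change (vertical axis, shSmurf1 over shControl) against log2 of the mean CPM of the groups (horizontal axis) for all 15647 genes tested (grey) and the 41 interferon-stimulated genes (red higher, blue lower, dark grey not passed). The largest changes, from OAS1 at 2.78 to BST2 at 1.0, are mostly among the genes with the lowest levels, with IFITM1 at 1.02 the main exception.

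The genes upstream of the response were taken from further lists. Of 21 interferon ligand genes, 17 had 0 counts in every library, among them IFNG, IFNK and IFNL1. IFNB1 had 1 count in all 8 libraries, and IFNA1 had 7 counts over shControl and 9 over shSmurf1. The single ligand gene tested was IFNE, interferon-ε, an epithelial type I interferon, at 9.93 against 10.7 CPM (0.10 ± 0.12, edgeR adjusted p = 0.595). Of 17 tested receptor and JAK-STAT genes, 2 were higher and 3 lower, near the shares of all genes tested (10.3% higher and 12.2% lower). SOCS3, a feedback inhibitor of cytokine receptors, was higher (0.69 ± 0.081, edgeR adjusted p = 4.44e-06) in a stretch of chromosome 17 whose nearest genes had a median of 0.38. STAT3 (−0.42 ± 0.050, edgeR adjusted p = 4.45e-06) and JAK1 (−0.20 ± 0.046) were lower. The genes nearest to JAK1 had a median of −0.27, from which JAK1 lay 0.07 away, and those nearest to STAT3 had a median of −0.15.

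JAK2 was lower (−0.25 ± 0.082, edgeR adjusted p = 0.0373) and passed in 2 of the 8 fits with a library left out, those without shSmurf1 replicate 1 or 3. It passed in 8 of 18 other settings in all, not with no scaling, with no filter on low counts or with the GC trend removed, and its change was −0.11 with the GC trend removed and shSmurf1 replicate 3 left out. The genes nearest to JAK2 had a median of −0.21, from which JAK2 lay −0.04 away. PTPN11 (0.04 ± 0.044), TYK2 (0.13 ± 0.060) and PTPN1 (−0.06 ± 0.049), the most highly counted of the others, did not pass. TYK2 passed as higher without shSmurf1 replicate 3 (0.20, edgeR adjusted p = 0.000172). PTPN11 passed as higher with the GC trend removed and shSmurf1 replicate 3 left out.

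Of 20 tested adaptors and kinases of the sensor pathways, 2 were higher, 2 lower and 16 did not pass, near the shares of all genes tested (10.3% higher and 12.2% lower). TLR3, the endosomal sensor of RNA duplexes, was higher (0.82 ± 0.20, edgeR adjusted p = 0.00455), as was MYD88, the shared adaptor of most Toll-like receptors (0.29 ± 0.078). G3BP1, an RNA-binding partner of several sensors (−0.08 ± 0.045), and TRIM25, a ligase that acts on RIG-I (−0.06 ± 0.063), did not pass. TLR4, the lipopolysaccharide receptor, was lower, from 3.31 to 0.942 CPM (−1.80 ± 0.26, edgeR adjusted p = 3.65e-05). STING1, the adaptor that acts after cGAS, was also lower (−0.22 ± 0.055). MAVS, the mitochondrial adaptor of RIG-I and MDA5, did not pass (0.09 with edgeR adjusted p = 0.193). Without shSmurf1 replicate 3, MAVS passed as higher (edgeR adjusted p = 0.0155) and G3BP1 as lower (edgeR adjusted p = 0.0225).

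Among 12 tested genes that break down or edit nucleic acid, 3 were higher and 2 lower, where 10.3% and 12.2% of all genes tested were. ADAR, which edits RNA duplexes and is itself interferon-stimulated, was higher (0.18 ± 0.044, edgeR adjusted p = 0.00455), and so were SAMHD1, a dNTP hydrolase (0.25 ± 0.063), and RNASEH2C, a subunit of RNase H2 (0.24 ± 0.080). RNASEH2C passed in only 2 of the 8 fits with a library left out (without shControl replicate 4 and without shSmurf1 replicate 3). DICER1 (−0.46 ± 0.068) and XRN1 (−0.34 ± 0.060), enzymes that cut RNA, were lower. SKIV2L (0.13 ± 0.068), DNASE2 (0.06 ± 0.056) and RNASEH2B (−0.03 ± 0.068) did not pass, although SKIV2L passed as higher without shSmurf1 replicate 3 (edgeR adjusted p = 0.00355).

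A further 50 interferon-stimulated genes outside the list of 45 were examined. Of 39 tested, 6 were higher and 2 lower, where 10.3% and 12.2% of all genes tested were. The median log2 fold change of the 39 was 0.04. Of the 34 well counted ones 5 were higher and 2 lower, where 11.5% and 14.7% of all well counted genes were. Those called were GBP4 (2.03 ± 0.40, on 2 to 7 counts in shControl, so that it met the filter through shSmurf1), DDX60 (0.33 ± 0.090), RNF213 (0.33 ± 0.057), TRIM14 (0.23 ± 0.063), ADAR and RNF114 as higher and PARP12 (−0.27 ± 0.085) and WARS1 (−0.21 ± 0.055) as lower. TRIM14 did not pass without shControl replicate 4 (edgeR adjusted p = 0.0521), and PARP12 passed in 3 of the 8 fits with a library left out. RNF213 lies on chromosome 17 as do LGALS3BP and SOCS3, in a stretch whose nearest genes had a median of 0.39. PARP12 lies on chromosome 7 where that median was −0.28. LY6E (0.16 ± 0.058), SHISA5 (0.03 ± 0.053) and CNP (0.04 ± 0.051) did not pass, although LY6E passed as higher without shSmurf1 replicate 3 (edgeR adjusted p = 9.79e-05). The interferon-induced chemokine genes CXCL9, CXCL10 and CXCL11 had 0 counts in every library.

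For comparison, 2 of 20 tested genes of MHC class I presentation were higher, near the 10.3% of all genes tested, and 0 lower (DESeq2 and limma-voom each called 0 lower), namely TAP1, a peptide transporter subunit (0.32 ± 0.079), and TAPBP, or tapasin (0.32 ± 0.051). With edgeR and an unadjusted p under 0.05, 1 was lower, ERAP1, an aminopeptidase that trims peptides (−0.21 ± 0.098). At that threshold HLA-E, PSMB8 and ERAP2 were higher beside TAP1 and TAPBP. Of the 20, 18 had positive log2 fold changes. In 4 every shSmurf1 library lay above every shControl library, where 10.6% of all genes tested did. CANX (0.03 ± 0.050), CALR (0.10 ± 0.051) and B2M (0.11 ± 0.055) did not pass. Without shSmurf1 replicate 3, CALR passed as higher (edgeR adjusted p = 0.00235), as it did there with the GC trend removed. CANX and B2M passed as higher with the GC trend removed, with or without shSmurf1 replicate 3. In a list of NF-kB inflammatory genes 11 of 20 tested genes were higher and 0 lower. The number lower was also 0 with DESeq2, with limma-voom and with edgeR at an unadjusted p under 0.05. At that unadjusted p more than 11 were higher. The largest changes were those of CSF2 (2.67 ± 0.42), CXCL8 (2.17 ± 0.21), CXCL1 (2.01 ± 0.33), TNFAIP2 (1.98 ± 0.16), CXCL2 (1.93 ± 0.32) and IL6 (1.64 ± 0.41). Of these, CSF2, CXCL1, CXCL2 and IL6 were low counted and met the filter through their shSmurf1 counts. NFKB1 (−0.07 ± 0.062), NFKBIA (0.16 ± 0.073) and NFKB2 (−0.03 ± 0.087) did not pass. The median log2 fold change was 0.11 for the MHC class I genes and 0.72 for the NF-kB genes. Of the 13 well counted NF-kB genes 7 were higher, with a median of 0.36, and of the 17 well counted MHC class I genes 2 were higher, with a median of 0.10. Differences between these lists were not tested.

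**Figure D5:**
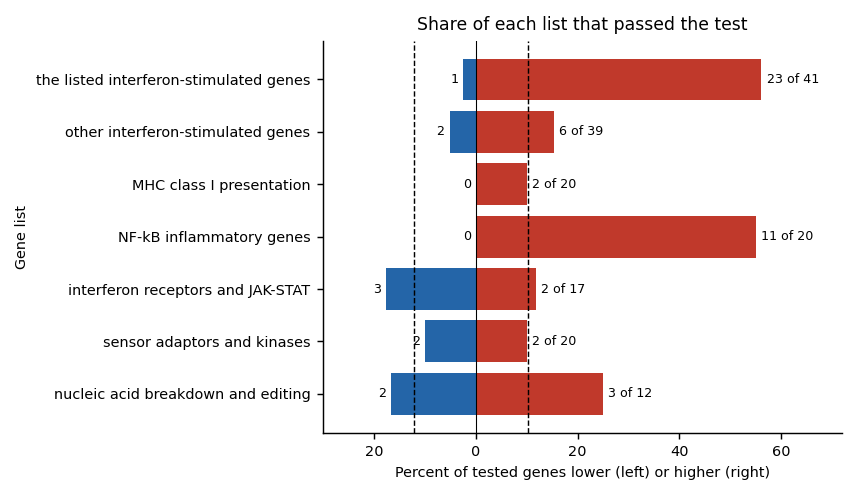
Percent of the tested genes of each list that were higher (red, right) or lower (blue, left) in shSmurf1, with counts beside the bars and dashed lines at the shares of all genes tested (10.3% higher and 12.2% lower). The listed interferon-stimulated genes (23 of 41) and the NF-kB genes (11 of 20) extend well past the dashed line on the right, and the other interferon-stimulated genes (6 of 39) lie nearer to it. These bars include genes that met the filter through their shSmurf1 counts (OAS1, OAS2, GBP4, CSF2, CXCL1, CXCL2 and IL6). Of the well counted genes, 19 of 35 listed and 7 of 13 NF-kB genes were higher, where 11.5% of all well counted genes were.

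Markers of blood cells, which also express many of these genes, were examined beside these results. Of 8 leukocyte markers 1 was tested, CD14, which was higher (6.76 to 13.1 CPM, 0.95 ± 0.12, edgeR adjusted p = 1.39e-05). The summed level of the 8 lay between 6.27 and 8.59 CPM in shControl and between 11.7 and 14.7 CPM in shSmurf1. CD3E and LYZ had 0 counts in every library, and PTPRC, the pan-leukocyte marker, lay at 0.430 CPM in shControl and 0.147 CPM in shSmurf1. Of 4 plasmacytoid dendritic cell markers IL3RA was higher (0.81 ± 0.28), TCF4 did not pass, LILRA4 had 0 counts and CLEC4C averaged 0.250 counts per library. Their summed level was 34.5 to 37.7 CPM against 31.9 to 38.4 CPM. Of 6 fibroblast markers LUM (which met the filter through shSmurf1) and COL3A1 were higher and PDGFRA, COL1A1 and THY1 did not pass. Their summed level was 2132 to 2348 CPM against 1711 to 2400.4 CPM, and the part of these cell types in the results was not tested.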

How the data were processed

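RNA-seq libraries of polyadenylated RNA from 8 cell samples were analysed from a deposited table of raw read counts, which the authors left unnormalized. The tools listed in the submitters' processing notes are featureCounts 1.5.0-p3, HISAT2 2.0.5, fastp and CASAVA. Build, annotation and strand setting: not given in the sources used here. All identifiers were found in GENCODE release 29 (GRCh38), which gave symbols, coordinates and exon lengths. Counting can drop or divide reads of close copies and of overlapping genes.

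Genes were kept by filterByExpr of edgeR version 4.0.16 (R version 4.3.3) with a minimum count of 10 and scaled by TMM. The main test, edgeR's quasi-likelihood F test, set shSmurf1 against shControl with 4 libraries each and no covariate, adjusted by Benjamini-Hochberg over all genes tested. SE is the log2 fold change over the root of F. The members, the lists and the tests were chosen with earlier results of these data known. Every listed gene is named. Values in every library are given for the 14 well counted and up to 8 low counted members past the test with the largest change and for the 5 most highly counted that did not pass. Of each further list, up to 6 called genes and up to 3 others are named. Genes named beyond that were chosen after their values were seen or belong to the marker lists. They are RNF114, ERAP1, ERAP2, HLA-E, PSMB8, and the ligands, chemokines and markers at or near 0. Some genes of the further lists are counted but not reported here by name.

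Other settings were DESeq2 size factors, no scaling, DESeq2 version 1.42.0, limma-voom (limma version 3.58.1), 3 other filters, the replicate number as a block, each library left out, and subtraction, per library, of the trend of log2 CPM on transcript GC content. Nearest genes are up to 25 well counted protein-coding genes on each side. On simulated counts for 15408 genes the test recovered 60%, 60%, 86% and 98% of 50 genes planted at 1.3-, 1.5-, 2- and 4-fold, with 13 false calls. The simulation changed a far smaller share of genes than the 22.5% called in the data and held no outlying library. These rates may therefore differ from those in the data.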

Additional observations from a re-analysis of the deposited data

Results flagged for a closer look

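In 3 of 84 groups of 4 libraries, a single library lay far from the other 3 by Dixon's criterion, which flags about 1 in 20 groups by chance. OAS1 was at 0.685 CPM in shControl replicate 3 (11 counts), and the next highest shControl library was at 0.179 CPM. Without that library the log2 fold change of OAS1 was 3.69. USP18 was at 1.25 CPM in shControl replicate 1, with the next at 0.674 CPM. HERC6 was at 8.56 CPM in shControl replicate 2, with the next at 6.04 CPM. USP18 and HERC6 did not pass with or without these libraries.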

How the results depend on the processing

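Of the 24 interferon-stimulated genes that changed, all kept their direction in every setting run, and 19 also passed the test in every setting in which they were tested. The number higher was 22 to 25 against 23 in settings that kept all libraries or combined the GC correction with leaving out shSmurf1 replicate 3, and 19 to 24 when 1 library was left out. The number lower was 1 to 2 when 1 library was left out, with SAMD9L added without shSmurf1 replicate 1 or 4. Over all genes, leaving out 1 library gave 1216 to 2601 higher and 2763 to 5348 changed in either direction, with the highest numbers without shSmurf1 replicate 3, against 1611 and 3527 with all libraries. With the replicate number as a block, 24 of the listed genes were higher and 1 lower, and 1418 genes in all were higher and 1774 lower. Same-numbered libraries deviated together by correlations of 0.051, −0.0089, −0.163 and 0.065, and 2 of 8 correlated best with their own number. These few values cannot decide whether same-numbered libraries were handled together, and the labels do not say.

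The log2 fold changes that turned direction were all of genes that did not pass. With the GC trend removed they were 0.013 for RIGI, 0.029 for CGAS, 0.012 for EIF2AK2, −0.095 for IRF7, 0.0046 for G3BP1, 0.040 for RNASEH2B and −0.027 for SHISA5. With the GC trend removed and shSmurf1 replicate 3 left out they were 0.031 for RIGI, 0.068 for CGAS, 0.036 for EIF2AK2, −0.041 for IRF7, 0.032 for G3BP1, −0.012 for DNASE2, 0.070 for RNASEH2B and −0.035 for SHISA5. With no scaling CGAS was at 0.0044. Leaving out 1 library gave −0.052 to 0.044 for CGAS, −0.096 to 0.114 for IFI44L, −0.034 to 0.168 for IRF7, −0.083 to 0.057 for NFKB2, −0.104 to 0.0056 for TRIM25 and −0.017 to 0.058 for CANX. The cause was not tested. At this depth the 4 barely counted genes could not be tested.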
